A study of Rattus norvegicus with 62 samples.

Results

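Pbsn, Obp3 and Lcn2 are genes for small secreted proteins of the lipocalin family, and their liver transcripts were followed in individual rats through a 2-stage carcinogenesis experiment. The 3 genes were taken by name from the 14218 genes that the array's annotation pairs with a probe set of their own, and they are covered by 4 of 31099 probe sets: 1 for Pbsn (1387191_at), 1 for Lcn2 (1387011_at) and 2 for Obp3 (1387985_a_at, used below, and 1370479_x_at). Pbsn and Obp3 were chosen by their measured signals: Pbsn stood out in earlier results of these data for livers initiated with thioacetamide, and Obp3 for livers given phenobarbital alone. Lcn2 was added as another lipocalin. The contrasts that drew attention to the first pair are therefore given as descriptions without a test. These are, for Pbsn, TAA/PB against each control group at 5w and TAA/PB at 10w against 5w, and, for Obp3, MC/PB against MC/water at 10w and MC/PB at 10w against 5w.

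The animals, all male, were Crj:CD(SD)IGS rats of Sprague-Dawley origin. The 5 initiated groups received diethylnitrosamine at 3 mg/kg (DEN3/PB) or 30 mg/kg (DEN30/PB), thioacetamide at 45 mg/kg (TAA/PB), methapyrilene at 100 mg/kg (MP/PB) or acetaminophen at 1000 mg/kg (APAP/PB), for 1 or 2 weeks, and after 2 weeks without treatment drank 500 ppm of phenobarbital (PB) for 6 weeks. The MC/PB group received the methylcellulose vehicle and then PB, and the MC/water group received the vehicle and then plain water. No initiated group went without PB, so an initiator's effect apart from PB was not measured here. Each animal gave liver at both weeks, first the tissue removed at partial hepatectomy 1 week after PB began (5w) and then the liver at the end of the experiment (10w), so each 10w liver had regrown after surgery. There were 5 animals in each of DEN3/PB, TAA/PB and MP/PB and 4 in each of the other 4 groups, which makes 31 animals and 62 arrays in 14 groups of treatment and week.

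Lipocalins fold into a barrel with a pocket that binds small hydrophobic molecules, and most are secreted. Pbsn encodes probasin, best known as an androgen-dependent protein of the rat prostate, whose promoter is widely used to direct transgenes to prostate epithelium. Obp3 encodes an odorant-binding protein of the alpha-2u-globulin group, the urinary proteins that the liver of the adult male rat makes in large amounts under androgen and growth hormone. Lcn2 encodes neutrophil gelatinase-associated lipocalin, which binds bacterial siderophores and so withholds iron; it is stored in neutrophil granules and is also made by hepatocytes during the acute-phase response.

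The RefSeq promoter of each gene, 250 bases before to 50 after its annotated start in the GRCr8 assembly, is shown because Pbsn and Obp3 stood out in different groups and Lcn2 in none. Capitals mark matches on either strand to a steroid receptor half-site, spelled AGAACA. They also mark the TATA box, spelled TATAAA, and an NF-kB core, spelled GGANNNTCC, and no matches overlapped. All 3 lie on the minus strand: Pbsn at chrX:45807934-45808233, Obp3 at chr5:79640626-79640925 and Lcn2 at chr3:36081731-36082030.
Pbsn: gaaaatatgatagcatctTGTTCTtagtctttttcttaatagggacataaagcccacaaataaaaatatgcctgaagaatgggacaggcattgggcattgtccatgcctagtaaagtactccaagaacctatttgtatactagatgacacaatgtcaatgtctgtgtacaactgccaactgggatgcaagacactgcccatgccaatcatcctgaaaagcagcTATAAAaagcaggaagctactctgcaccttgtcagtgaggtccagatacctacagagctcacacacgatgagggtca
Obp3: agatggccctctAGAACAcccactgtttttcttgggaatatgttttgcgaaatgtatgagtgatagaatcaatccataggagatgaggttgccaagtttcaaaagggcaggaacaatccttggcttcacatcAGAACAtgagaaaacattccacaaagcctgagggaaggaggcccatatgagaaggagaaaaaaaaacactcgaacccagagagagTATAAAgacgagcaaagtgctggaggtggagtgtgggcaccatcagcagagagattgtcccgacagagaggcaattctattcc
Lcn2: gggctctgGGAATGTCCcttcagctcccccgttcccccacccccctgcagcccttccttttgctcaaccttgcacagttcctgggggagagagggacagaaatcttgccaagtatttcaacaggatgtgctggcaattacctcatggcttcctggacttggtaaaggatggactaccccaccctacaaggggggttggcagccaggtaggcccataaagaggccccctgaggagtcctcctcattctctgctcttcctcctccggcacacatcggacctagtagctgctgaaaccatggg
The half-site occurred 1 time in the Pbsn promoter, starting at position -232 from the gene's start, and 2 times in the Obp3 promoter, at -238 and -118. Of 33469 rat promoters of the same length, 20.7% held at least 1 such match and 2.99% held 2 or more. The TATA box began at -27 in Pbsn and at -33 in Obp3, and 14.2% of promoters held one. The NF-kB core began at -242 in Lcn2, and 8.25% of promoters held one. A STAT element, TTCNNNGAA, matched none of the 3 windows and 8.87% of all promoters. These matches describe the letters of the windows and were not tied to the measurements.

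Values below are the deposited MAS5 signals, an intensity per probe set on a linear scale; differences are between group means of log2(signal + 25), with standard errors. A signal of 100 was taken as the minimum for use, and the bound given where all controls lay under it sets each such control at 100. A difference passed when its Benjamini-Hochberg adjusted p in limma was below 0.05, over 10491 genes at 5w, 10546 at 10w and 10910 across both weeks. Levels of different genes cannot be compared, because each probe set has its own response.

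The defining hepatocyte transcripts Alb, Ttr, Apoa1 and Cps1 were strong on every array, with a lowest signal of 21835. Of 17 tested phenobarbital-inducible genes, 12 rose in MC/PB against MC/water livers at 10w, where 2.26% of all genes were called, and 11 at 5w, where 1.26% were. The arrays fell into sets of 30 and 32 along the first component of the residuals, with 11.8% of the variation. All 31 animals stayed in the same set at both weeks, and every group held arrays of both sets. The nature of the sets is not given in the sources used here, and values within each set stand beside the results they touch.

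Pbsn transcripts were near or below the signal minimum in control livers and reached their highest levels in TAA/PB livers at 5w. Only 18 of 62 arrays had a Pbsn signal of 100 or more, over a range of 1.15 to 2861. At 5w the 5 TAA/PB livers had signals of 602, 2553, 2861, 1696 and 437. The 5 DEN3/PB livers had 1057, 144, 79.3, 221 and 1215, and the 4 DEN30/PB livers had 50.7, 739, 84.5 and 102. All of these 14 livers lay above every control liver of that week. Groups that did not overlap in this direction occurred, against MC/PB, in 0.963% of genes for TAA/PB, 1.12% for DEN3/PB and 2.20% for DEN30/PB, and against MC/water in 3.42%, 2.86% and 4.45% for the same 3 groups.

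The MP/PB livers at 5w had Pbsn signals of 6.51, 9.4, 6.28, 72.4 and 255, and the APAP/PB livers had 163, 2.94, 20.9 and 53.6. In each of these groups a single liver passed 100. The control livers had 33.6, 19, 1.89 and 1.15 in the MC/PB group and 12.4, 29.9, 22.5 and 43.9 in the MC/water group, so that none of the 8 reached the minimum. Over all 23 initiated livers, 18 exceeded the highest control at 5w.

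**Figure D1:**
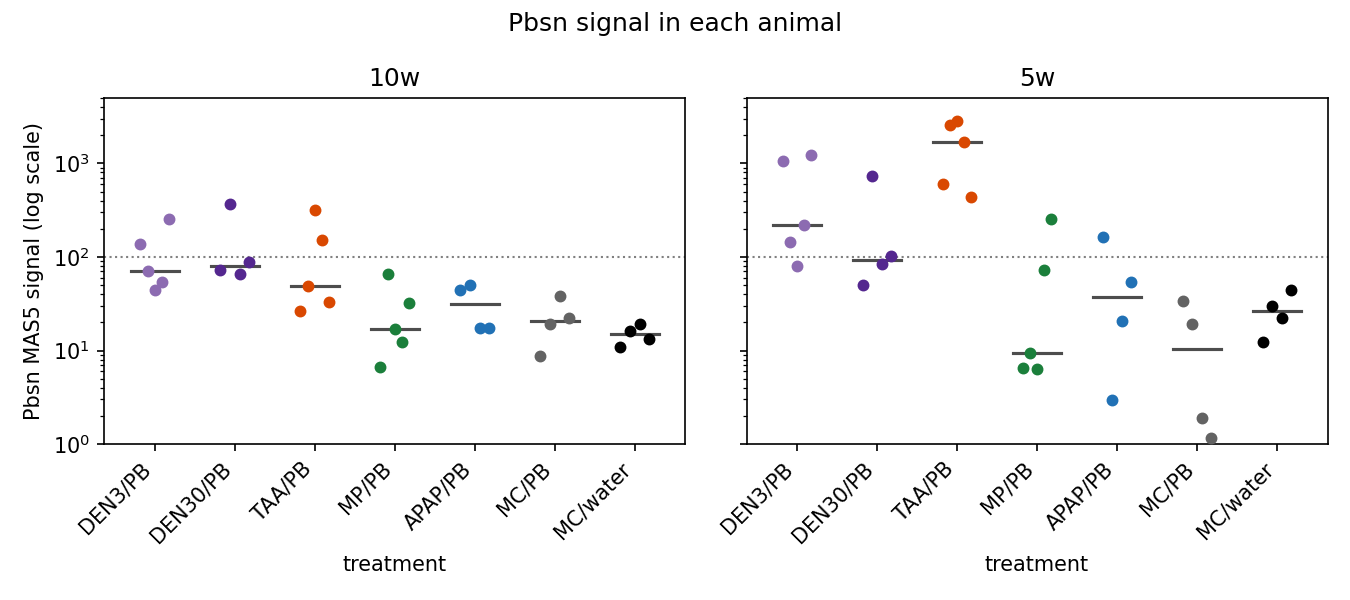
Pbsn signal in each animal at 10w (left) and 5w (right), on a log axis; each point is 1 array, bars are group medians and the dotted line is the signal minimum of 100. At 5w the 5 TAA/PB points lie between 437 and 2861, against 1.15 to 33.6 in MC/PB livers.

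The difference in Pbsn of TAA/PB minus MC/PB livers at 5w was 5.15 ± 0.75 on the log2 scale, and with the MC/PB livers set at the minimum it was at least 12.7-fold. Pbsn was 1 of 2 genes called in that comparison, 0.0191% of those tested; it was chosen for this contrast, so nothing is read from the rank. Against MC/water livers the difference was 4.67 ± 0.75, with 2.32% of genes called. Within the first array set the TAA/PB minus MC/PB difference was 5.08 and within the second it was 5.23.

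The DEN groups were not part of that choice, but the control arrays of 5w were. The DEN differences from these controls are therefore not independent of the choice. DEN3/PB livers lay above all MC/PB livers in Pbsn at 5w, yet the log2 difference of 3.28 ± 0.75 did not pass in limma (adjusted p = 0.0936). With the MC/PB livers set at the minimum, the DEN3/PB group mean on the log2 scale was at least 3.18-fold higher. The DEN3/PB difference from MC/water livers was 2.81 ± 0.75 (limma adjusted p = 0.0504). It passed in 1 of 9 other settings, with the array set as a block (adjusted p = 0.0421), and the highest adjusted p of these was 0.661. Of 9 fits that left out 1 array it passed in 1, without DEN3/PB replicate 3, the lowest liver of that group (adjusted p = 0.0204). The highest adjusted p of those fits was 0.151. DEN30/PB livers also lay above all MC/PB livers, at 2.20 ± 0.79 (limma adjusted p = 0.548) and at least 1.34-fold over the minimum, with 1.20 and 3.20 within the array sets. Of the 4 DEN30/PB livers 2 reached the minimum. Because all MC/PB livers lay under the minimum, the size of both differences depends on the offset: with none they were 5.70 for DEN3/PB and 4.46 for DEN30/PB, and neither passed (limma adjusted p = 0.0650 and 0.291). The higher DEN dose did not have the higher mean Pbsn level at 5w: DEN30/PB minus DEN3/PB was -1.09 ± 0.75 (limma adjusted p = 0.999), with overlapping groups. Its direction differed between the array sets, at -2.51 in the first and 0.61 in the second.

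MP/PB and APAP/PB livers overlapped both control groups in Pbsn at 5w. Their differences from MC/PB livers were 0.76 ± 0.75 and 0.85 ± 0.79, and neither passed in limma, with adjusted p of 0.870 and 0.889. PB alone had no detectable effect on Pbsn at this precision: MC/PB minus MC/water was -0.47 ± 0.79 at 5w and 0.20 ± 0.51 at 10w (limma adjusted p = 0.919 and 0.923). With every liver of both groups below the minimum, no fold is given.

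At 10w Pbsn signals were lower in the TAA/PB group, and the 3 groups that had stood above the controls at 5w lay close together. The DEN3/PB livers had 136, 70.4, 44.3, 54.2 and 254, the DEN30/PB livers had 72.2, 368, 65.2 and 87.6, and the TAA/PB livers had 26.8, 48.9, 321, 151 and 32.8. The MP/PB livers had 6.68, 66.4, 17.1, 12.3 and 32.5, and the APAP/PB livers had 44.6, 50.4, 17.2 and 17.5. Control livers had 8.78, 19.1, 38 and 22.3 in the MC/PB group and 11, 16.3, 19.2 and 13.4 in the MC/water group. Every DEN3/PB and DEN30/PB liver still lay above every control liver, while the TAA/PB group overlapped the MC/PB group and not the MC/water group. Among all genes, 1.01% had every DEN3/PB array and 1.98% every DEN30/PB array above every MC/PB array; against MC/water the shares were 4.81% for DEN3/PB, 5.37% for DEN30/PB and 3.89% for TAA/PB.

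Of the 10w differences in Pbsn, DEN30/PB minus MC/water passed, at 1.82 ± 0.51 (limma adjusted p = 0.0461) and at least 1.11-fold over the minimum, in a comparison where 3.18% of genes were called. Only 1 of the 4 DEN30/PB livers, replicate 2 at 368, reached the minimum, so the bound rests on that liver. With no offset the difference was 2.92. The call was marginal: it was lost without a filter on signal (adjusted p = 0.0535), on all probe sets (adjusted p = 0.0581) and in 7 of 8 fits that left out 1 array. It passed without DEN30/PB replicate 1, where the adjusted p was 0.0485. Without DEN30/PB replicate 2, whose signal of 368 was the highest of any liver at 10w, the difference was 1.32 with an adjusted p of 0.245. DEN3/PB minus MC/water was 1.57 ± 0.49 and TAA/PB minus MC/water 1.41 ± 0.49 (limma adjusted p = 0.0657 and 0.0885). The first passed with no offset and the second without TAA/PB replicate 1. The TAA/PB arrays of 10w entered the contrast between weeks that chose Pbsn. The TAA/PB differences at 10w are therefore not independent of that choice, and nothing is read from their p. Against MC/PB livers the 3 differences were 1.37 ± 0.49 for DEN3/PB, 1.61 ± 0.51 for DEN30/PB and 1.21 ± 0.49 for TAA/PB, and none passed in limma, with adjusted p from 0.678 upward.

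The same TAA animals had less Pbsn at 10w than at 5w in every case. Their changes on the log2 scale lay between -5.12 and -2.998, and the group difference of 10w minus 5w was -3.61 ± 0.62, with no overlap between weeks, as in 1.53% of genes. In that comparison 1.77% of genes were called, which is 193 genes, against 655 with the animal as a random block and 66 to 207 with 1 animal left out; the contrast chose the gene, so the value is a description. Within the array sets it was -3.33 and -3.80. All 5 DEN3/PB animals also had lower signals at 10w, with a difference of -1.59 ± 0.62 that did not pass in the limma fit without the animal (adjusted p = 0.165) and passed with the animal as a block (adjusted p = 0.0300). In the fit without the animal 2.89% of genes were called in this comparison. The share with the animal as a block, which raised the count in TAA/PB animals, is not given here for DEN3/PB.

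For the remaining groups the differences of 10w minus 5w in Pbsn lay between -0.36 ± 0.62 (MP/PB) and 0.32 ± 0.69 (MC/PB), and none passed in limma. Of all 31 animals, 23 had a lower Pbsn signal at 10w. The drop in TAA/PB against that in MC/PB animals was -3.94 ± 0.93, and this difference of differences contains the 5w arrays that chose the gene, so it is a description too.

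Ordered by mean log2 level over the 14 groups, Pbsn was highest in 5w TAA/PB livers, followed by 5w DEN3/PB, 5w DEN30/PB, 10w DEN30/PB, 10w DEN3/PB and 10w TAA/PB livers. The step from the first to the second of these, 1.86 on the log2 scale, exceeded the larger of the SDs of the neighbouring groups, here 1.61; it sets apart the group whose values chose the gene and is a description. No other neighbouring groups differed beyond their spread. At 5w the signals of TAA/PB livers had a coefficient of variation of 67.6% and those of DEN3/PB and DEN30/PB livers 101% and 136%, against 111% in MC/PB and 48.8% in MC/water livers, whose signals all lay under the minimum.

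Obp3 behaved otherwise: its signal was high in every liver at 5w, and the lowest group mean of the series was that of MC/PB livers at 10w. Some TAA/PB, MP/PB and APAP/PB livers at 10w had signals within the MC/PB range. The Obp3 probe set exceeded the minimum on all 62 arrays, between 2749.8 and 40482. At 10w the MC/PB livers had signals of 7191, 4285, 3749.6 and 2749.8, against 26282, 24385, 22558 and 27137 in MC/water livers. The groups did not overlap, as in 4.04% of genes in this direction. MC/PB livers averaged 4494 ± 1907 and MC/water livers 25090.5 ± 2043 (SD, n = 4 each). On the log2 scale the difference of means was -2.56 ± 0.56, which is 5.90-fold lower. In a liver sample, fewer cells that make a transcript and less transcript per cell cannot be told apart.

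This contrast chose the gene. Of all genes 0.664% were called lower in it, and nothing is read from that rank. The difference was -2.22 within the first array set and -2.90 within the second. On the other Obp3 probe set, whose name marks possible cross-hybridisation, it was -2.44, from 5872, 4344, 3889.8 and 2409 in MC/PB livers against 21747, 20664, 20563 and 23139 in MC/water livers. The many near-identical alpha-2u-globulin genes of the rat may contribute to either probe set, so these signals are uncertain as a measure of Obp3 alone.

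**Figure D2:**
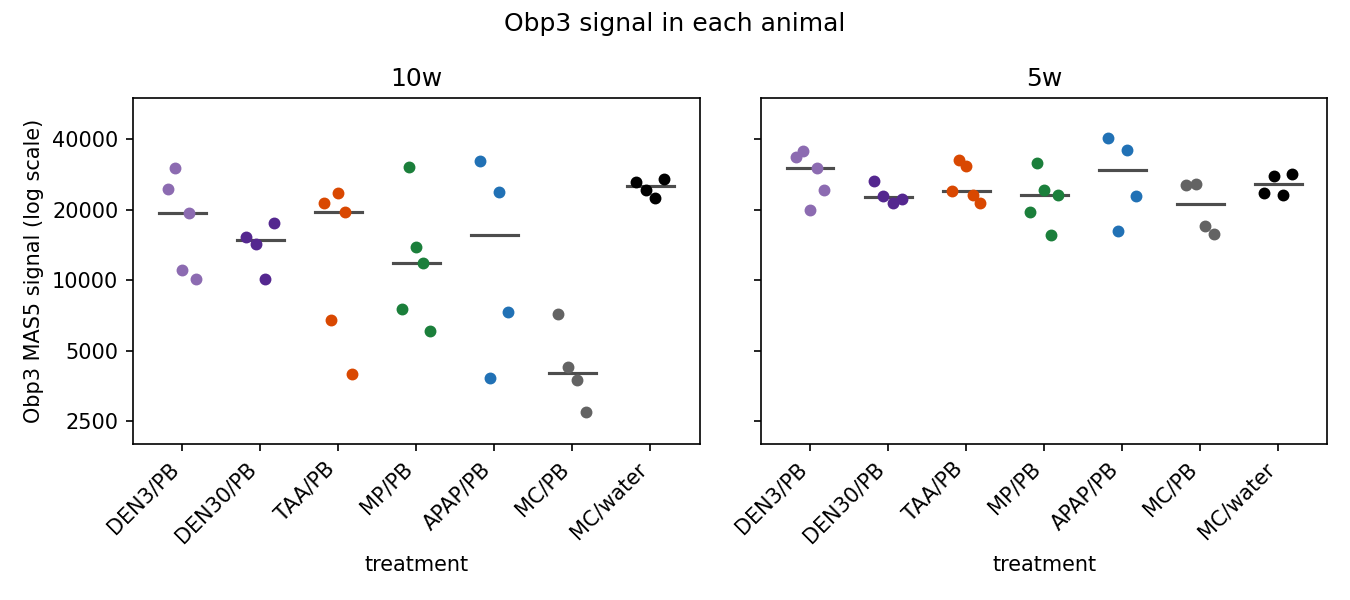
Obp3 signal in each animal at 10w (left) and 5w (right), on a log axis; each point is 1 array and bars are group medians. At 10w MC/PB points lie between 2749.8 and 7191, against 22558 to 27137 in MC/water livers, and initiated groups spread over the gap.

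Initiated livers that drank the same PB spread across the gap between the control groups at 10w. DEN3/PB livers had Obp3 signals of 24624, 30299, 11103, 19319 and 10118, and DEN30/PB livers had 15243, 14356, 10136 and 17609.5. TAA/PB livers had 21322, 6799, 23482, 19521 and 3981, MP/PB livers had 7533, 30379.7, 13936, 11871 and 6059, and APAP/PB livers had 32335, 3817, 23878 and 7314. Of these 23 livers, 19 lay above all MC/PB livers and 17 below all MC/water livers. Both DEN groups lay wholly above the MC/PB group, with the shares of genes given above for Pbsn in the same comparisons.

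The differences in Obp3 from MC/PB livers at 10w were 2.04 ± 0.53 for DEN3/PB, 1.73 ± 0.56 for DEN30/PB, 1.52 ± 0.53 for TAA/PB, 1.48 ± 0.53 for MP/PB and 1.52 ± 0.56 for APAP/PB. All 5 were positive, and none passed in limma over all genes, with adjusted p from 0.487 to 0.999. They share the MC/PB arrays whose low values chose the gene, and so they are not independent of that choice or of each other. Positive signs are favoured by that choice, so nothing is read from these p. The same holds for the fit on only the compared groups, where the DEN30/PB difference passed (limma adjusted p = 0.0465). Against MC/water livers the 5 differences lay between -1.08 ± 0.53 (MP/PB) and -0.52 ± 0.53 (DEN3/PB), and none passed in limma. The DEN30/PB difference of -0.83 ± 0.56 passed when only the compared groups were fitted (limma adjusted p = 0.0177). Every DEN30/PB liver lay below every MC/water liver, as in 4.08% of genes. The MC/water arrays of 10w also entered the contrast that chose the gene, and negative signs are favoured by that choice. Nothing is therefore read from this p or from the lack of overlap.

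At 5w, after 1 week of PB, Obp3 levels overlapped between all groups. The MC/PB livers had 25464, 25845, 16993 and 15765, against 23588, 27790.0, 23137 and 28543 in MC/water livers, a difference of -0.32 ± 0.23 (limma adjusted p = 0.687). The initiated livers ranged from 15679.6 in an MP/PB liver to 40482 in an APAP/PB liver, with a median of 24145. Their differences from MC/PB livers lay between 0.12 ± 0.22 (MP/PB) and 0.46 ± 0.22 (DEN3/PB), and none passed in limma.

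Every one of the 27 animals that drank PB had a lower Obp3 signal at 10w than at 5w. In the 4 MC/PB animals the changes on the log2 scale lay between -2.59 and -1.82, and the group difference of 10w minus 5w was -2.27 ± 0.45, with no overlap between weeks, as in 3.13% of genes; this contrast too chose the gene. In this comparison 1.31% of genes were called, a count of 143 that became 528 with the animal as a block and 17 to 50 with 1 animal left out. The Obp3 difference was -1.997 and -2.55 within the array sets, and from -2.42 to -2.17 with 1 MC/PB animal left out. The MC/water animals, by contrast, changed by between -0.19 and 0.16, and their difference was -0.04 ± 0.45.

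The initiated groups' differences of 10w minus 5w in Obp3 were smaller in size than that of MC/PB animals: -0.69 ± 0.40 in DEN3/PB, -0.72 ± 0.45 in DEN30/PB, -1.10 ± 0.40 in TAA/PB, -0.91 ± 0.40 in MP/PB and -1.16 ± 0.45 in APAP/PB animals. Without the animal in the limma fit none of these passed. With the animal as a block the TAA/PB and APAP/PB falls passed (limma adjusted p = 0.0263 and 0.0364). That block raised the genes called in TAA/PB animals from 193 to 655. For APAP/PB the share was 1.47% without the animal and is not given here with it. The change of MC/PB against that of MC/water animals differed by -2.24 ± 0.63, and the 5 initiated groups' changes differed from that of MC/PB animals by between 1.11 ± 0.63 (APAP/PB) and 1.59 ± 0.60 (DEN3/PB). All 6 of these values contain the MC/PB arrays that chose the gene, and so they are given without a test.

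Individual animals within an initiated group differed widely in Obp3 at 10w. The SD on the log2 scale was 0.70 in DEN3/PB, 0.34 in DEN30/PB, 1.15 in TAA/PB, 0.90 in MP/PB and 1.44 in APAP/PB livers, against 0.57 in MC/PB and 0.12 in MC/water livers. At 5w the same treatments had SDs of 0.35, 0.13, 0.27, 0.38 and 0.60, against 0.38 in MC/PB and 0.16 in MC/water livers. In the order of the 14 group means, the step from 10w MP/PB down to 10w MC/PB livers, 1.48 on the log2 scale, exceeded the larger SD of the neighbouring groups, 0.90, and no other step did. It sets apart the group whose values chose the gene and is a description.

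Lcn2 differed from both: its signal varied several-fold between animals of the same group, and 0 of 37 comparisons passed in limma. Of these 37, 0 had an unadjusted p below 0.05, and 52 of 62 arrays had a signal of 100 or more. At 10w the DEN30/PB livers had 169.8, 416, 382 and 171, the group with the highest mean log2 level of the 14. By mean signal the 5w MC/PB livers were higher, at 320 against 285. The MC/PB livers at 10w had 192, 278, 9.06 and 155 and the MC/water livers 218, 155, 114 and 156. The DEN30/PB and MC/PB groups overlapped, and their difference was 1.02 ± 0.51 (limma adjusted p = 0.972).

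The other initiated livers at 10w had Lcn2 signals of 285, 156, 304, 112 and 128 (DEN3/PB), of 231, 239, 185, 196 and 116 (TAA/PB), of 450.5, 256, 339, 58.7 and 214 (MP/PB) and of 124, 79.6, 120.4 and 351 (APAP/PB). Each of these groups overlapped the MC/PB and the MC/water group. Differences from MC/PB livers lay between 0.27 ± 0.51 (APAP/PB) and 0.82 ± 0.49 (MP/PB) in these 4 groups. MC/PB minus MC/water was -0.37 ± 0.51. All 5 initiated-minus-MC/PB differences were positive at 10w, but without MC/PB replicate 3, the liver with the signal of 9.06, those of DEN3/PB, TAA/PB and APAP/PB turned negative, at -0.13, -0.09 and -0.41. Within the first array set all 5 were positive, between 0.78 and 2.28, and within the second only that of DEN30/PB was, at 0.33, against -0.57 in DEN3/PB, -0.21 in TAA/PB, -0.39 in MP/PB and -0.23 in APAP/PB livers.

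**Figure D3:**
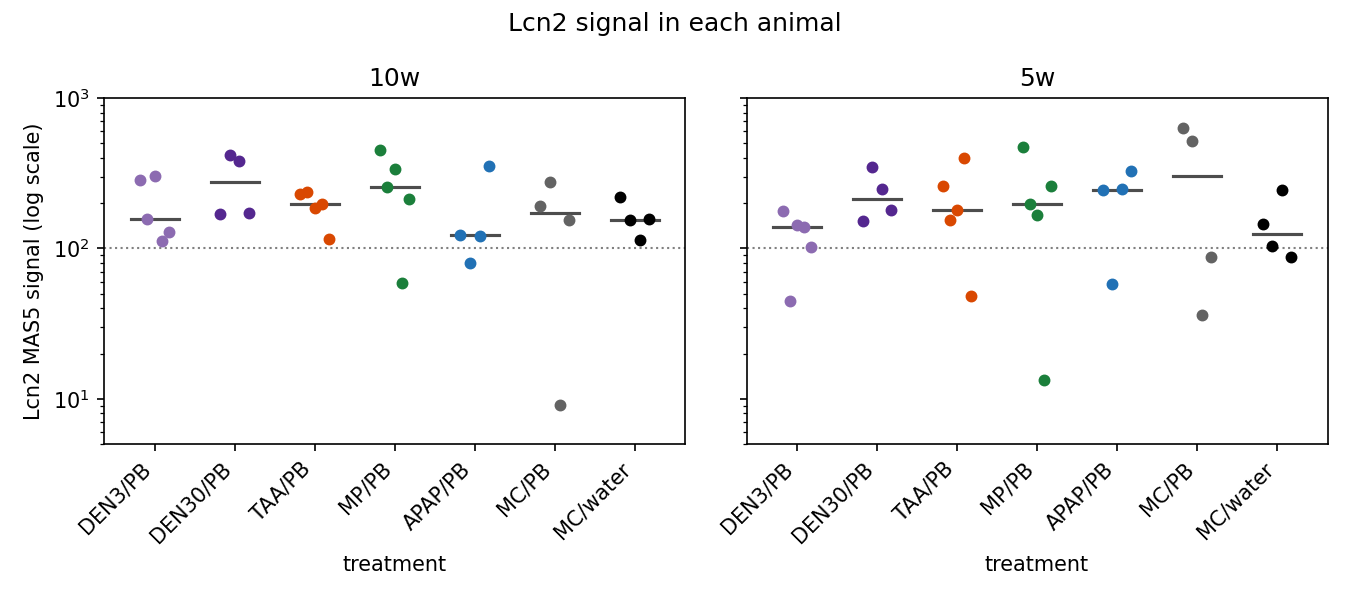
Lcn2 signal in each animal at 10w (left) and 5w (right), on a log axis; each point is 1 array, bars are group medians and the dotted line is the signal minimum of 100. All groups overlap, and the lowest points are an MC/PB liver at 10w (9.06) and an MP/PB liver at 5w (13.2).

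At 5w the MC/PB livers held both the highest Lcn2 signal of the series and one of the lowest, with 636, 519.7, 36.2 and 88. The MC/water livers had 146, 104, 244 and 88.2, and the difference of 0.47 ± 0.66 did not pass in limma (adjusted p = 0.895). DEN3/PB livers had 176, 44.9, 142, 139 and 102, DEN30/PB livers 153, 346, 247 and 180.0, and TAA/PB livers 261, 155, 181, 401 and 48.2. MP/PB livers had 471, 197, 167, 13.2 and 260.3, and APAP/PB livers had 243, 58.4, 247 and 329. Differences from MC/PB livers lay between -0.70 ± 0.63 (DEN3/PB) and 0.14 ± 0.66 (DEN30/PB).

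No order of Lcn2 levels can be read over the 14 groups, since no neighbouring groups differed by more than the larger of their SDs; the widest step was 0.20 on the log2 scale. Between weeks, 12 of 31 animals had a lower signal at 10w, and the group differences of 10w minus 5w ran from -0.66 ± 0.62 in MC/PB to 0.60 ± 0.55 in DEN3/PB animals. With the animal as a block none of the 7 passed either.

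**Figure D4:**
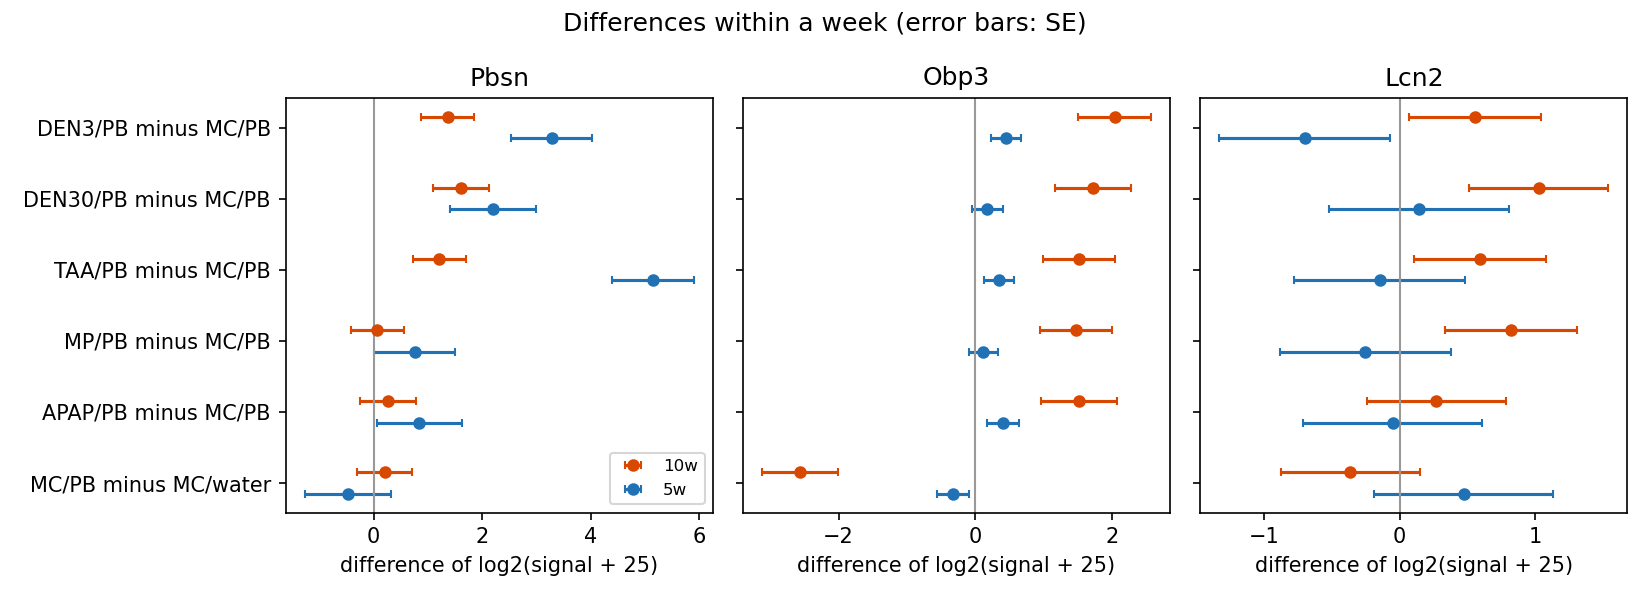
Differences of mean log2(signal + 25) within a week for Pbsn, Obp3 and Lcn2, with SE bars, at 10w (orange, upper) and 5w (blue, lower). Pbsn is highest for TAA/PB minus MC/PB at 5w (5.15), Obp3 lowest for MC/PB minus MC/water at 10w (-2.56), and Lcn2 stays between -0.70 and 1.02.

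Within groups, animals with a higher level of each transcript at 5w tended to have a higher level at 10w. After each group's mean was taken off, signals of the same animal at 5w and 10w correlated over 31 animals for Lcn2 (r = 0.753, rho = 0.635), Obp3 (r = 0.697, rho = 0.679) and Pbsn (r = 0.596, rho = 0.558). With permutation of animals within treatments and adjustment over the 9 relations computed, p was 0.00036 for r and 0.00414 for rho in Lcn2, 0.00756 and 0.0100 in Obp3, and 0.0165 and 0.0257 in Pbsn. Without the 2 animals farthest from the median at 5w, r was 0.599 for Lcn2, 0.581 for Obp3 and 0.537 for Pbsn. All animals kept their array set at both weeks and the permutations crossed sets, so the permutation p does not separate the animal from the set. Within the array sets of 15 and 16 animals r was 0.803 and 0.751 for Lcn2, 0.851 and 0.597 for Obp3, and 0.768 and 0.389 for Pbsn. MP/PB replicate 4 illustrates this for Lcn2, with the lowest signal of its group at 10w (58.7) and at 5w (13.2), as does MC/PB replicate 3, with 9.06 at 10w and 36.2 at 5w.

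**Figure D5:**
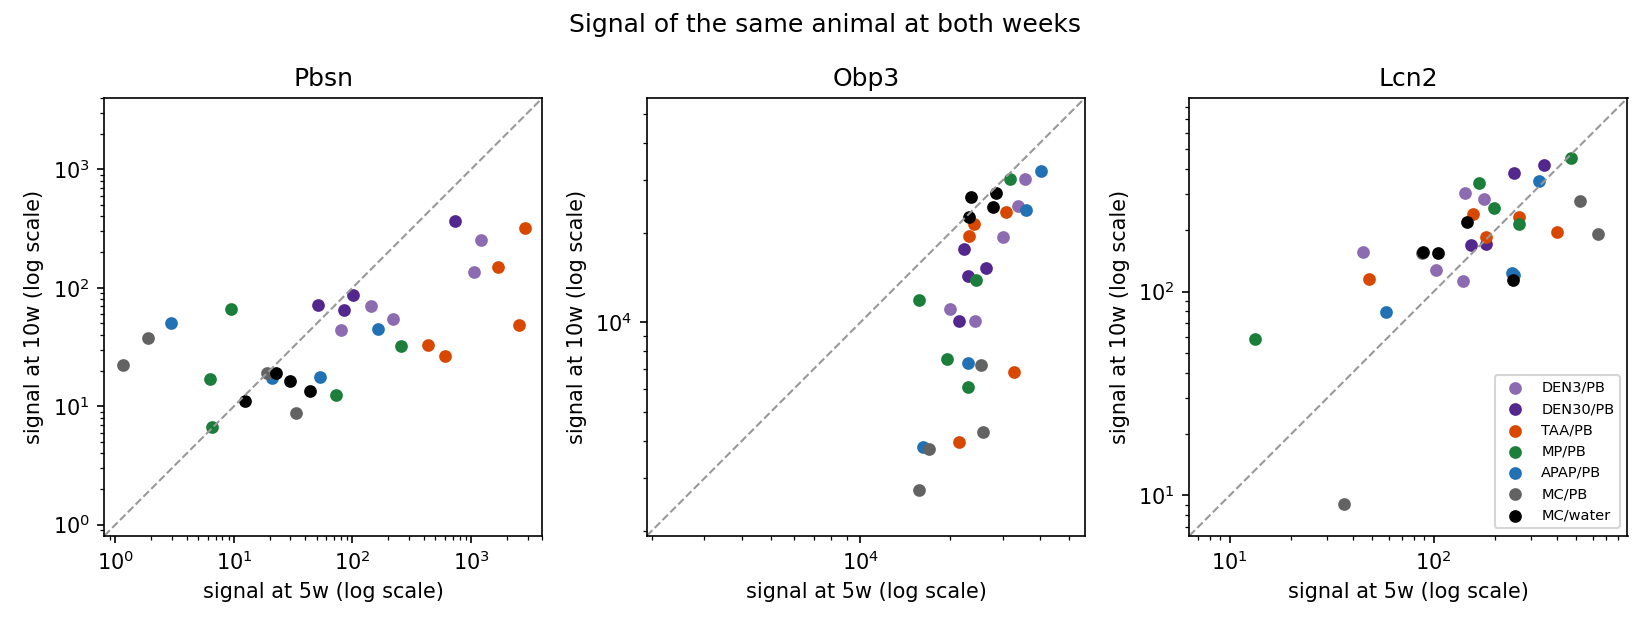
Signal of each of 31 animals at 10w (vertical, log axis) against 5w (horizontal, log axis) for Pbsn, Obp3 and Lcn2; colours are treatments and the dashed line marks equal signals. All 27 PB-treated animals lie below the line for Obp3, against 11 of 27 for Lcn2.

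No relation between the 3 genes across animals passed. After group means were taken off, the 6 correlations between pairs of them within a week ran from -0.09 for Pbsn and Lcn2 at 10w to 0.404 for Obp3 and Lcn2 at 5w. The lowest adjusted permutation p of the 6 was 0.152 for r, so none passed.

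Genes whose levels were most like a member's are named by correlation only. Over 62 arrays with group means taken off, Pbsn went most closely with Akirin1 (r = 0.654), Sts (0.592), Sema3c (0.522), Ggact (0.517) and Rab7a (0.514), and lay opposite to Msi2 (-0.584) and Sfxn1 (-0.571). Obp3 went with Dhrs7l1 (0.732), Ftcd (0.597), Mpeg1 (0.584), Cyp3a18 (0.573) and Hao2 (0.548), and lay opposite to Bag1 (-0.538) and Cxcl11 (-0.521). Lcn2 went with Eng (0.591), Sdhaf1 (0.566), Fpgs (0.541), Lpl (0.541) and Mlc1 (0.527), and lay opposite to Bphl (-0.586) and Pnkd (-0.548). Both weeks of an animal and both array sets enter these values, and r for Dhrs7l1 with Obp3 was 0.763 and 0.718 within the sets.

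Over the 14 group means a partly different set stood closest. For Obp3 these were Stat5b (r = 0.920), which encodes a transcription factor activated by growth hormone, Dhrs7l1 (0.908), Hao2 (0.894), which encodes a peroxisomal hydroxyacid oxidase, Nr1h3 (0.887), the oxysterol receptor gene, and LOC102554026 (0.886). For Pbsn they were Ece2 (0.786), Dbt (0.765), Agxt2 (0.756), Fgd5 (0.750) and Atl1 (0.750). For Lcn2 they were Timp1 (0.815), which encodes an inhibitor of metalloproteinases, Prim1 (0.813), Ferry3 (0.758), Olfml2a (0.757) and Col4a1 (0.754). With group means taken off, r of Stat5b with Obp3 over the 62 arrays was 0.021, against 0.732 for Dhrs7l1 and 0.548 for Hao2. The 14 means share animals between weeks and include the groups that chose Pbsn and Obp3, and these values carry no test.

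No other lipocalin was called where Obp3 was lowest. Of 28 listed family members 12 were on the array and 7 could be tested. In MC/PB against MC/water livers at 10w 0 of the 7 were called, against 2.26% of all genes. Their median difference was -0.02, against -0.01 over all genes. Mup5, a major urinary protein gene that lies near Obp3 on chromosome 5, differed by -0.15 ± 0.17. Apom, which carries sphingosine-1-phosphate on lipoproteins, differed by -0.52 ± 0.20 (limma adjusted p = 0.201). Rbp4, the retinol carrier of plasma, differed by -0.02 ± 0.10. Orm1, the acute-phase alpha-1-acid glycoprotein, rose at 5w by 0.57 ± 0.09 (limma adjusted p = 0.000278) and did not pass at 10w, at 0.22 ± 0.11.

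Initiated livers also had higher Orm1 than MC/water livers: all 5 groups passed at 5w, with differences from 0.47 in DEN30/PB to 0.64 in TAA/PB livers, and TAA/PB, MP/PB and APAP/PB livers passed at 10w, at 0.38, 0.37 and 0.39. Of all genes, 1.53% (DEN3/PB), 1.79% (DEN30/PB), 2.32% (TAA/PB), 3.15% (MP/PB) and 2.62% (APAP/PB) were called at 5w, and 5.35% (TAA/PB), 5.00% (MP/PB) and 5.22% (APAP/PB) at 10w. Against MC/water at 5w, DEN3/PB livers also had higher Obp1f, another odorant-binding lipocalin, by 1.11 ± 0.27, and lower Apom, by 0.40 ± 0.11 (limma adjusted p = 0.0277 and 0.0453). Against MC/PB livers 0 of the 7 lipocalins passed in TAA/PB livers at 5w, where their median difference was 0.11, against 0.00 over all genes.

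Because alpha-2u-globulins are male-biased liver products, the other genes of that pattern were set beside Obp3. In MC/PB against MC/water livers at 10w, 0 of 13 tested male-biased genes rose and 2 fell: Hao2 by 0.84 ± 0.18 and Ust5r, an organic anion transporter gene, by 0.79 ± 0.22 (limma adjusted p = 0.00849 and 0.0450). Of all genes, 1.59% were called higher and 0.664% lower in this comparison. The median of the 13 was -0.21. Cyp2c11, the main male-specific P450 gene of rat liver, differed by 0.02 ± 0.10 and Car3, encoding carbonic anhydrase III, by -1.64 ± 0.55 (limma adjusted p = 0.117). Hao2 also fell between weeks in MC/PB (0.64 ± 0.16), DEN3/PB (0.62 ± 0.14), TAA/PB (0.68 ± 0.14), MP/PB (0.72 ± 0.14) and APAP/PB animals (0.74 ± 0.16), while it differed by -0.61 ± 0.16 in DEN30/PB (limma adjusted p = 0.118) and by -0.15 ± 0.16 in MC/water animals. In the comparisons between weeks 1.34% of genes were called in MP/PB and 1.47% in APAP/PB animals.

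Of 11 tested female-biased genes, 3 rose in MC/PB against MC/water livers at 10w, where 1.59% of all genes were called higher. The median of the 11 was 0.64. The 3 that rose were Gstm1 (0.57 ± 0.08), Cyp2a1 (1.12 ± 0.23) and Abcb1a (1.56 ± 0.34). They encode a glutathione transferase, a steroid hydroxylase and a drug efflux pump. Their limma adjusted p were 4.11e-05, 0.00455 and 0.00917. Gstm1, Cyp2c7 and Cyp3a9 of this list are also in the phenobarbital-inducible list. A change in sex-biased genes apart from induction by PB was not tested. Cyp2c12, the main female-specific P450 gene, differed by 0.46 ± 0.77 and ranged from 359 to 28412 over the arrays. Of 21 tested genes of growth hormone and androgen signalling 0 passed, with a median of -0.16; Stat5b differed by -0.46 ± 0.16 (limma adjusted p = 0.155) and Ghr, the growth hormone receptor gene, by -0.24 ± 0.14 (adjusted p = 0.473).

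For Lcn2 the surrounding genes were those of the acute phase, of iron handling and of neutrophils. Of 28 tested acute-phase and inflammatory genes, 0 passed in MC/PB against MC/water livers at 10w and 1, Orm1, at 5w, with medians of -0.01 at 10w and 0.01 at 5w. Of all genes 2.26% were called at 10w and 1.26% at 5w. Of 13 tested iron-handling genes and Lcn2 partners 0 passed at either week; Slc22a17, which encodes an Lcn2 receptor, differed by -0.12 ± 0.15 at 10w and by -0.37 ± 0.14 at 5w.

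Most listed neutrophil markers were below the signal minimum on most arrays. Of the 14 listed markers on the array, Camp, Mmp8, Mmp9, Cxcr2, Csf3r, Itgam, RatNP-3b and Np4 were below 100 on all 62 arrays. S100a8 ranged from 2.85 to 154 and S100a9 from 32.9 to 308. S100a9 reached the minimum on 42 arrays, Ncf1 on 14 and S100a8 on 7. Only Lyz2, which macrophages also express, exceeded the minimum on every array. Lyz2, at 1402 to 5711, carried most of the summed marker signal, which ran over the 14 groups from 1753 to 6624, both in TAA/PB livers at 5w. Such a sum adds probe sets with different responses, so only the same sum can be compared between groups. Without Lyz2 the sum of the other 13 markers at 10w ran from 418 to 622 in DEN30/PB, 453 to 602 in MC/PB and 539 to 737 in MC/water livers. At 5w it ran from 295 to 912 in TAA/PB livers, which held the highest value of the series, from 348 to 392 in MC/PB and from 272 to 438 in MC/water livers. Across arrays with group means taken off, the median r of the 4 testable neutrophil markers with Lcn2 was 0.119, against 0.02 for all genes, and their part in the Lcn2 values was not tested.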

How the data were processed

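The authors measured liver RNA on 62 Affymetrix arrays, and deposited 1 linear signal intensity per probe set and array, computed by MAS5 5.0, as the submitters' processing notes name it. The sources used here give neither the scaling target nor the array model. Trimmed means (2% at each end) were 500.23 to 500.27 and median signals 99.34 to 125.7 over the arrays, so no scaling was added. The number of arrays limits the precision.

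Of 31099 probe sets 20826 carry a single gene symbol in the annotation table, 436 several and 9780 no symbol, and 57 are controls. Probe sets with 1 symbol and a signal of at least 100 on at least 4 arrays of a fit were kept, the one with the highest mean per gene, and log2(signal + 25) was fitted by lmFit and eBayes (trend) of limma 3.58.1 under R 4.3.3 (two-sided, Benjamini-Hochberg over all genes kept). Each week was fitted on its 31 arrays, and comparisons between weeks on all 62. The 37 comparisons cover PB, each initiator against MC/PB and MC/water, DEN dose, week and differences between weeks. The steps were tested on simulated data. Correlations used 100000 permutations within treatments.

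Groups, animals and doses come from the labels, which give both weeks' samples to the same animal. Residuals of an animal's 2 arrays correlated at 0.21 to 0.392 in all 31 animals. The animal was therefore a random block (correlation 0.316) in an alternative for the comparisons between weeks. Within a week that alternative took the replicate number as a fixed block, which joins different animals. Other alternatives were no offset, quantile normalization, no filter, only the compared groups, the array set as a block, each set alone, all probe sets, the other Obp3 probe set and leaving out arrays in 93 fits.

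The members, the gene lists and the tests were chosen with earlier results of these data known. A pair of genes that are not lipocalins and a pair with doubtful sex bias were taken out of the lists after their values had been seen. Named genes are the members, the 5 closest and 2 most opposite genes by residual correlation, the 5 closest by group means, list members past the threshold (up to 4 a list) and Cyp2c11, Cyp2c12, S100a8, S100a9 and Ghr; the other list genes named were chosen after their values were seen. Promoters and coordinates are RefSeq's, GRCr8.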

Additional observations from a re-analysis of the deposited data

Results flagged for a closer look

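Pbsn in DEN30/PB replicate 2 at 10w had a signal of 368, against 65.2 to 87.6 in the other 3 livers of its group. Its gap to the nearest liver was 0.849 of the group's log2 range, which stands apart by Dixon's criterion. Of 42 groups of values examined this was the only 1 to do so. Chance flags about 1 group in 20, so 1 among 42 is not more than chance gives.

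The difference in Pbsn of TAA/PB minus MC/PB livers differed between weeks, 10w minus 5w, by -3.94 on the log2 scale in an interaction term with the animal as a random block (limma adjusted p = 0.0200). Without the animal the same value had an adjusted p of 0.929. All 5 TAA/PB animals had lower signals at 10w and 1 of 4 MC/PB animals did. The 5w arrays in it are those for which the gene was chosen, so nothing is supported by this p.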

How the results depend on the processing

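Of 984 values recomputed on all arrays or within 1 array set, for 111 differences of the members, 931 kept their direction and their side of the threshold, 9 lost and 9 gained a call and 35 changed sign. Of 864 values that left out arrays these numbers were 813, 8, 2 and 41. None of the differences that changed sign was past the threshold with or without the change, and the cause was not tested for any value given here. Counts of genes are given apart. Group sizes of 4 or 5 arrays and, for Pbsn, signals near the minimum limit the precision; the arrays hold no counts, so no depth is known, and a set alone has 2 or 3 arrays a group.

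With the animal as the replicate block, the 10w minus 5w differences of -1.59 in DEN3/PB (Pbsn), -1.10 in TAA/PB and -1.16 in APAP/PB animals (Obp3), and the difference between weeks of TAA/PB minus MC/PB in Pbsn, -3.94, passed, the last being no test since it contains the arrays that chose the gene. The block changed no other call of a member. At 10w minus 5w the genes called with the animal as a block numbered 528 rather than 143 for MC/PB and 655 rather than 193 for TAA/PB. Within a week this alternative instead took the replicate number as a fixed block, which joins different animals. There the genes called numbered 8 rather than 2 for TAA/PB minus MC/PB at 5w. At 10w they numbered 389 rather than 238 for MC/PB minus MC/water and 519 rather than 335 for DEN30/PB minus MC/water.

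The contrasts that chose the genes appear here only as values of the fit. Calls of members were gained in Pbsn for DEN3/PB minus MC/water, at 2.62 with no offset (10w) and at 2.83 with the array set as a block (5w). They were gained in Obp3 on only the compared groups, at 1.73 for DEN30/PB minus MC/PB and -0.83 for DEN30/PB minus MC/water at 10w. The first of these contains the MC/PB arrays and the second the MC/water arrays of the contrast that chose the gene, so neither is an independent test. In the same setting a call was gained at -2.24 for MC/PB minus MC/water between weeks, a contrast built from those that chose the gene. The DEN30/PB minus MC/water call in Pbsn at 10w was lost at 1.82 without a filter and on all probe sets. Within the first set calls were lost in Pbsn for TAA/PB minus MC/PB (5.08) and minus MC/water (5.00) at 5w and for TAA/PB between weeks (-3.33), and in Obp3 for MC/PB between weeks (-1.997). Within the second they were lost in Pbsn for TAA/PB minus MC/PB at 5w (5.23) and in Obp3 for MC/PB minus MC/water at 10w (-2.90) and MC/PB between weeks (-2.55).

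Genes called for TAA/PB minus MC/PB at 5w numbered 1 without a filter, 1 on only the compared groups and 0 and 1 within the sets. They numbered 370 with the set as a block and 51 and 36 within the sets for MC/PB minus MC/water at 10w, and 219 on only the compared groups and 31 and 74 within the sets for DEN30/PB minus MC/water at 10w. At 10w minus 5w they numbered 0 and 9 within the sets for MC/PB, and 92 on only the compared groups and 0 and 77 within the sets for TAA/PB. With an array or animal left out these counts ran from 1 to 5, 141 to 179, 138 to 387, 17 to 50 and 66 to 207 in the same order of comparisons.

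The differences that changed sign were as follows. Within the first array set, Pbsn gave -0.34 for MP/PB minus MC/PB at 5w, -0.42 for MP/PB minus MC/water at 5w, 0.041 for DEN30/PB 10w minus 5w, 0.22 for MP/PB 10w minus 5w and 0.0012 for MP/PB minus MC/PB between weeks. Within the first array set, Obp3 gave 0.024 for DEN30/PB minus MC/water at 5w, 0.19 for APAP/PB minus MC/water at 10w and 0.060 for MC/water 10w minus 5w. Within the first array set, Lcn2 gave -0.094 for MC/PB minus MC/water at 5w, 0.27 for TAA/PB minus MC/PB at 5w, 0.62 for MP/PB minus MC/PB at 5w, 0.42 for APAP/PB minus MC/PB at 5w, -0.22 for MC/water 10w minus 5w and -0.068 for TAA/PB 10w minus 5w. Within the second array set, Pbsn gave -0.39 for APAP/PB minus MC/water at 5w, 0.61 for DEN30/PB minus DEN3/PB at 5w and 0.27 for APAP/PB 10w minus 5w. Within the second array set, Obp3 gave -0.061 for APAP/PB minus MC/PB at 5w, -0.15 for TAA/PB minus MC/water at 5w and -0.54 for APAP/PB minus MC/water at 5w. Within the second array set, Lcn2 gave 0.37 for MC/PB minus MC/water at 10w, -0.57 for DEN3/PB minus MC/PB at 10w, -0.21 for TAA/PB minus MC/PB at 10w, -0.39 for MP/PB minus MC/PB at 10w, -0.23 for APAP/PB minus MC/PB at 10w, -0.20 for DEN3/PB minus MC/water at 10w, -0.023 for MP/PB minus MC/water at 10w, 0.13 for APAP/PB minus MC/water at 10w and 0.21 for APAP/PB 10w minus 5w. With no offset, Pbsn gave -0.070 for MP/PB minus MC/water at 5w and 0.084 for APAP/PB 10w minus 5w. With no offset, Lcn2 gave 0.032 for APAP/PB minus MC/PB at 5w. With quantile normalization, Obp3 gave -0.032 for TAA/PB minus MC/water at 5w and 0.0026 for MC/water 10w minus 5w. On the other probe set, Obp3 gave -0.022 for APAP/PB minus MC/water at 5w. With 1 array or animal left out, Pbsn ranged over -0.26 to 0.53 for MP/PB minus MC/water at 5w, -0.13 to 0.79 for APAP/PB minus MC/water at 5w, -0.16 to 0.22 for MP/PB minus MC/PB at 10w, -0.25 to 0.55 for DEN30/PB minus DEN3/PB at 10w, -0.81 to 0.12 for MP/PB 10w minus 5w and -0.81 to 0.14 for APAP/PB 10w minus 5w. Obp3 ranged over -0.056 to 0.10 for TAA/PB minus MC/water at 5w, -0.0096 to 0.24 for MP/PB minus MC/PB at 5w, -0.11 to 0.33 for APAP/PB minus MC/water at 5w and -0.10 to 0.016 for MC/water 10w minus 5w. Lcn2 ranged over -0.40 to 0.017 for DEN3/PB minus MC/water at 5w, -0.051 to 1.09 for MC/PB minus MC/water at 5w, -0.77 to 0.37 for TAA/PB minus MC/PB at 5w, -0.88 to 0.32 for MP/PB minus MC/PB at 5w, -0.68 to 0.47 for APAP/PB minus MC/PB at 5w, -0.48 to 0.66 for DEN30/PB minus MC/PB at 5w and -0.13 to 0.79 for MP/PB minus MC/water at 5w. Lcn2 also ranged over -0.47 to 0.14 for APAP/PB minus MC/water at 10w, -0.73 to 0.32 for MC/PB minus MC/water at 10w, -0.13 to 0.92 for DEN3/PB minus MC/PB at 10w, -0.094 to 0.96 for TAA/PB minus MC/PB at 10w, -0.41 to 0.64 for APAP/PB minus MC/PB at 10w and -0.13 to 0.34 for TAA/PB 10w minus 5w. The last of these was -0.035 without TAA/PB replicate 2. Calls moved in the ranges 2.36 to 3.26 (Pbsn, DEN3/PB minus MC/water at 5w), 1.32 to 2.03 and 0.99 to 1.67 (Pbsn, DEN30/PB and TAA/PB minus MC/water at 10w) and -2.42 to -2.17 (Obp3, MC/PB 10w minus 5w).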
